A study of Mus musculus with 11 samples.

Results

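The genes described here are the 6 genes of the ISG15 conjugation pathway, the modifier Isg15, the enzymes Uba7, Ube2l6, Herc6 and Trim25, and the protease Usp18. They were chosen by symbol for their role in the pathway, with earlier results of these data known. Each symbol matched 1 of the 55487 gene identifiers in the count tables. All 6 had enough reads to be among the 24177 genes tested.

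RNA was sequenced from whole hearts of E14.5 mouse embryos, 1 stranded poly(A) library per heart, and reads were counted per gene. The 5 Pde2A-/- hearts (replicates A, B, 14, D and 15) carried the targeted tm1Dgen allele of Pde2A, the gene of a phosphodiesterase that hydrolyzes cAMP and cGMP, and the 6 Pde2A+/+ hearts (replicates 7, 11, 6, 8, H and E) were wild type. All embryos were untreated and came from matings of heterozygous parents of the B6; 129P2 line, the allele is not limited to a tissue, and the litter and sex of each heart were not given in the sources used here. The comparison asks which transcripts differ in the embryonic heart without Pde2A, and here how a single interferon-inducible enzymatic pathway was placed in it.

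ISG15 is a ubiquitin-like protein that is attached to other proteins in a chain of reactions called ISGylation. UBA7 activates ISG15, UBE2L6 carries it, and a ligase transfers it to the target, for which HERC6 is the main ligase in the mouse and TRIM25 a further one. USP18 removes ISG15 from its targets and also restrains signaling by the type I interferon receptor, and all of these genes are known to be induced by interferon in many cell types.

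Of the 6 genes, 5 were higher in Pde2A-/- than in Pde2A+/+ hearts at an adjusted p under 0.05 (quasi-likelihood test of edgeR, adjusted by Benjamini-Hochberg over all genes tested), where 8.86% of all genes tested were higher. With a fold change of at least 2 as well, 3 were called, Isg15, Usp18 and Uba7, against 2.15% of all genes. In 5 of the 6 the lowest Pde2A-/- heart lay above the highest Pde2A+/+ heart, which held for 5.38% of all genes. None of the 6 was lower, against 5.72% of all genes. Their median log2 fold change was 1.49, and that of all genes tested was -0.02. As the set was chosen with earlier results of these data known, these shares describe it and do not test it. Ube2l6, the conjugating enzyme, was the one gene of the pathway that did not pass the test.

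The sequences around the transcription start are shown first because short promoter elements are known to mediate induction by interferon, and because the members searched differed in them. Whether such elements acted on these genes in these hearts was not tested. RefSeq promoters on GRCm38.p6, each from 250 bases before to 50 bases after the start, were held for 5 of the 6 genes, and not for Usp18. Both strands were searched for the interferon-stimulated response element, written GAAANNGAAA, for the shorter core bound by interferon regulatory factors, AANNGAAA, which lies inside the first, and for the gamma-activated sequence GAS, TTCNNNGAA. Capitals mark the bases of a response element or a core, and positions count from the start base as 0. The stretches of Isg15, Ube2l6 and Herc6 end at the base before the start, and those of Uba7 and Trim25 are the 30 bases around their single core. GENCODE starts these 2 genes 62 (Uba7) and 27 (Trim25) bases before the RefSeq start, so by GENCODE both of these stretches lie inside the gene.
Isg15: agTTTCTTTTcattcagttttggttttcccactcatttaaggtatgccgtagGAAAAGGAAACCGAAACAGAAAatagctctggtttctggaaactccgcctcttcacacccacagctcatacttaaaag
Uba7: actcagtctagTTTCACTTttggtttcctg
Trim25: ctcctgttcagTTTCGATTccttcctcgct
Ube2l6: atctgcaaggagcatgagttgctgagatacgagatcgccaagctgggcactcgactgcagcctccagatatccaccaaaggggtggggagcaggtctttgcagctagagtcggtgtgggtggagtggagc
Herc6: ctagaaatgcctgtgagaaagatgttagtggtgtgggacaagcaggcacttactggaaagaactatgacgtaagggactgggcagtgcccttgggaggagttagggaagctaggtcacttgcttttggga

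The Isg15 stretch lies at chr4:156200819-156200948 on the minus strand. It holds 3 overlapping response elements in a row, GAAAAGGAAA from -78 to -69, GAAACCGAAA from -72 to -63 and GAAACAGAAA from -66 to -57, and a further core from -128 to -121. The response element was found in 3.44% of the 32851 promoters of the table in 1 of the 5 members searched and in 11 of the 22 other interferon-induced genes listed below that had an entry.

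Uba7, at chr9:107975529-107975558 on the plus strand, held 1 core, TTTCACTT from -27 to -20 on the opposite strand. Trim25, at chr11:88999388-88999417 on the plus strand, held 1 as well, TTTCGATT from -4 to 3. The stretches of Ube2l6, at chr2:84798698-84798827, and Herc6, at chr6:57580862-57580991, both on the plus strand, held none, and neither did the rest of their windows. A core, inside a response element or not, was found in 23.9% of all promoters, in 3 of the 5 members and in 19 of those 22 genes. GAS was found in none of the 5, in 5 of those 22 and in 8.3% of all promoters. These matches describe the letters of these windows only.

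Isg15 (ENSMUSG00000035692, on chromosome 4 from 156199424 to 156200818 of GRCm38, minus strand, 2 exons) encodes the modifier itself. In CPM, read counts scaled to a common library size after TMM normalization, its level was 7.73 in Pde2A-/- replicate A, 38.1 in B, 31.3 in 14, 16.9 in D and 30.6 in 15. The 6 Pde2A+/+ hearts lay between 0.740 and 1.33 CPM, with a median of 1.09. All knockout hearts were thus far above all wild-type hearts, and even replicate A, the lowest, was 5.80 times as high as the highest wild-type heart. The mean was 24.9 ± 12.3 CPM (SD, n = 5) against 1.09 ± 0.215 CPM (SD, n = 6). The log2 fold change was 4.52 (SE 0.40, adjusted p = 8.56e-05), a 22.9-fold difference with a 95% interval from 12.3 to 42.7, and it ranked 13 among all genes tested.

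Uba7 (ENSMUSG00000032596, chromosome 9 from 107975505 to 107984060, plus strand) encodes the activating enzyme that is specific to ISG15. It was at 29.7 CPM in replicate A, 62.3 in B, 55.4 in 14, 51.2 in D and 61.2 in 15 of Pde2A-/- and at 12.5 to 13.8 CPM, median 13.1, in Pde2A+/+ hearts. The wild-type hearts were almost level, and each knockout heart was at least 2.16 times as high as the highest of them. Uba7 rose by 1.99 on the log2 scale (SE 0.16, adjusted p = 1.40e-05), a 3.96-fold difference with a 95% interval from 3.12 to 5.02. Of its exon bases 3.5% are shared with Gm20661 on the same strand, and reads on both genes are counted for neither.

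Ube2l6 (ENSMUSG00000027078, chromosome 2 from 84798828 to 84810335, plus strand) encodes the conjugating enzyme of the pathway. Its level was 36.6 CPM in replicate A, 68.2 in B, 55.6 in 14, 57.8 in D and 61.1 in 15 of Pde2A-/-, and in Pde2A+/+ hearts it ran from 24.9 to 67.9 CPM with a median of 40.4. The genotypes overlapped, since wild-type replicate 11 was nearly as high as the highest knockout heart and replicate A lay below 3 wild-type hearts. The log2 fold change was 0.40 (SE 0.25, adjusted p = 0.327), with a 95% interval of the fold from 0.893 to 1.95. The interval therefore reached from slightly lower to nearly the fold of Trim25, and it lay wholly below those of Isg15, Usp18 and Uba7.

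Herc6 (ENSMUSG00000029798, chromosome 6 from 57581000 to 57664632, plus strand) encodes the ligase that serves ISG15 in the mouse. The Pde2A-/- hearts had 5.85 CPM in replicate A, 7.08 in B, 6.57 in 14, 5.75 in D and 7.71 in 15, and the Pde2A+/+ hearts 4.18 to 5.16 CPM with a median of 4.86. The groups did not overlap, but the gap was narrow, the lowest knockout heart being 1.11 times the highest wild-type heart. Herc6 rose by 0.48 on the log2 scale (SE 0.10, adjusted p = 0.00938), a 1.40-fold difference with a 95% interval from 1.197 to 1.63. It shares 13.7% of its exon bases with the same-strand transcript Gm45193, so part of its reads were not counted.

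Trim25 (ENSMUSG00000000275, chromosome 11 from 88999376 to 89020293, plus strand) encodes a ligase for both ubiquitin and ISG15 that is best known for activating the RNA sensor RIG-I. It was at 80.5 CPM in replicate A, 96.7 in B, 109.7 in 14, 105 in D and 129 in 15 of Pde2A-/-, against 48.6 to 55.3 CPM, median 52.0, in Pde2A+/+ hearts. Each knockout heart was at least 1.45 times as high as the highest wild-type heart. The log2 fold change was 0.995 (SE 0.093, adjusted p = 1.86e-05), or 1.99-fold with a 95% interval from 1.74 to 2.29. Trim25 thus lay just under the 2-fold limit of a call, and it passed the limit when replicate A (log2 fold change 1.08), replicate B (1.02), wild-type replicate E (1.01) or wild-type replicate H (1.02) was left out. With all hearts kept, it also passed with no count filter (1.001), with reads of both strands (1.004) and with replicate name style as covariate (1.014).

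Usp18 (ENSMUSG00000030107, chromosome 6 from 121245906 to 121270917, plus strand) encodes the protease that removes ISG15. It had 2.98 CPM in replicate A, 9.35 in B, 9.93 in 14, 6.63 in D and 12.98 in 15 of Pde2A-/-, and 0.274 to 0.671 CPM, median 0.402, in Pde2A+/+ hearts. The wild-type values rest on 10 to 27 reads per heart, and the lowest knockout heart was 4.43 times as high as the highest of them. Usp18 rose by 4.202 on the log2 scale (SE 0.37, adjusted p = 2.65e-05), an 18.4-fold difference with a 95% interval from 10.6 to 32.004, and ranked 19 among all genes tested. Its exons share 4.4% of their bases with Gm44148, which lies on the opposite strand.

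**Figure D1:**
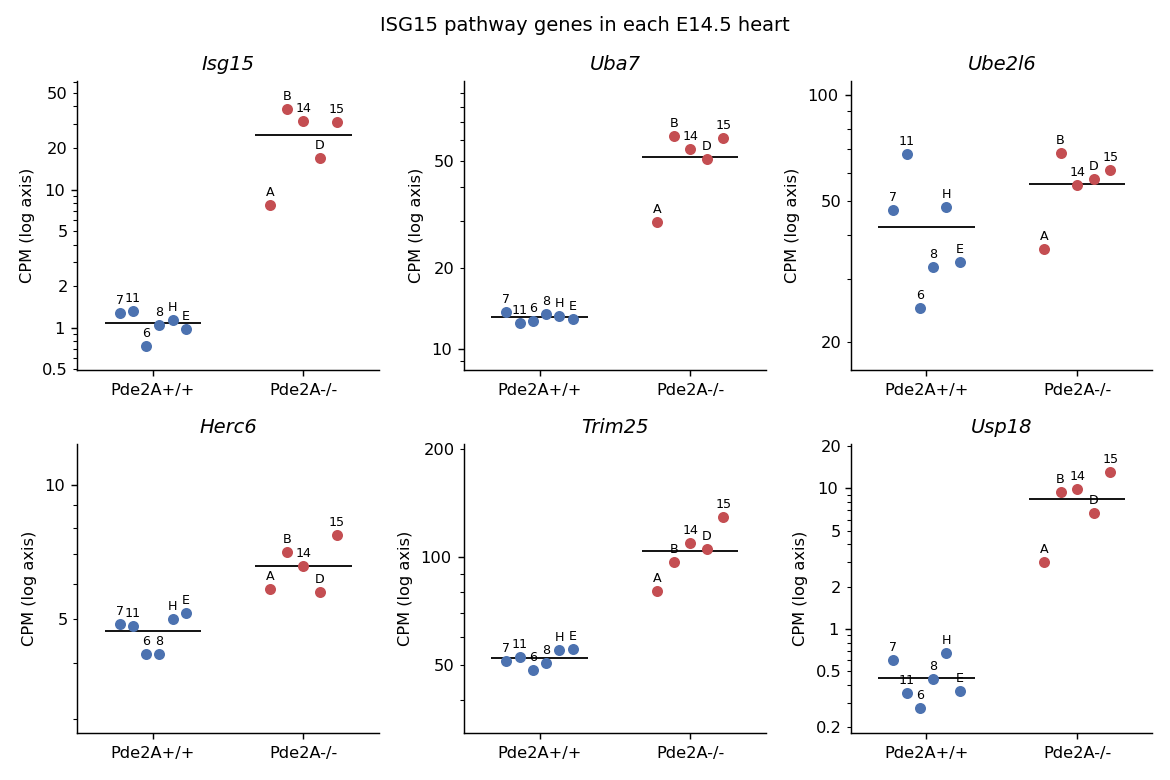
Level of each ISG15 pathway gene in each heart, in TMM-normalized CPM on a log axis whose range differs between panels. Points are single hearts marked with their replicate name, lines are means of 6 Pde2A+/+ (blue) and 5 Pde2A-/- (red) hearts, and the genotypes are apart in every panel but that of Ube2l6.

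All 6 transcripts were present in wild-type hearts. Per length, in CPM per kilobase of exon (RPKM), the Pde2A+/+ order was Ube2l6 at 21.2 ± 7.72, Trim25 at 9.09 ± 0.465, Uba7 at 1.96 ± 0.0735, Isg15 at 1.44 ± 0.285, Herc6 at 0.507 ± 0.0455 and Usp18 at 0.161 ± 0.0555 RPKM (SD, n = 6). The ranges of neighbours in this order did not overlap, but with the length of the longest transcript those of Isg15 (0.979 to 1.76) and Herc6 (0.877 to 1.08) did. The conjugating enzyme was therefore the most abundant transcript of the pathway, and the modifier and its protease were among the scarce ones.

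In Pde2A-/- hearts the order was Isg15 at 33.0 ± 16.3, Ube2l6 at 28.0 ± 5.90, Trim25 at 18.1 ± 3.11, Uba7 at 7.77 ± 1.98, Usp18 at 3.001 ± 1.35 and Herc6 at 0.709 ± 0.0896 RPKM (SD, n = 5). Isg15 ran from 10.2 to 50.4 RPKM, so it did not differ beyond its spread from Ube2l6 (18.3 to 34.2) or Trim25 (13.98 to 22.5), and these ranges overlapped each other too. Trim25 lay above Uba7 (4.44 to 9.31) without overlap, and Usp18 (1.07 to 4.65) lay above Herc6 (0.618 to 0.830) without overlap as well, while the ranges of Uba7 and Usp18 touched. Within each knockout heart, however, Ube2l6 lay above Trim25 and Uba7 above Usp18. With the length of the longest transcript in place of all exons, Ube2l6 stood first at 35.8 RPKM in Pde2A-/- hearts, ahead of Isg15 at 33.0. On that length the ranges of Trim25 (14.4 to 23.1) and Uba7 (8.20 to 17.2) overlapped. Those of Uba7 and Usp18 (1.68 to 7.33) no longer did.

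The ratio of modifier to enzyme also differed. Isg15 over Uba7, in RPKM within a heart, ran from 2.30 to 5.41 in Pde2A-/- hearts and from 0.515 to 0.943 in Pde2A+/+ hearts, without overlap. Isg15 over Ube2l6 ran from 0.557 to 1.48 against 0.0518 to 0.0852. Isg15 over Usp18, modifier to protease, ran from 8.71 to 15.04 against 6.29 to 13.9, and these ranges overlapped. The ratios are descriptions of RNA and carry no test.

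**Figure D2:**
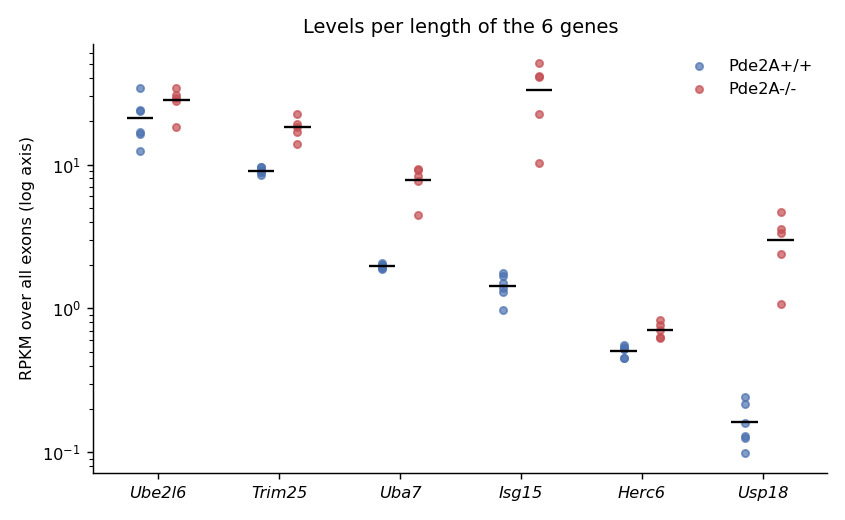
RPKM over all exons of the 6 genes on a log axis, ordered by their mean in Pde2A+/+ hearts. Points are single hearts and lines are means for 6 Pde2A+/+ (blue) and 5 Pde2A-/- (red) hearts, with Isg15 at a mean of 1.44 RPKM in the former and 33.0 RPKM in the latter.

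The 5 knockout hearts were not alike. The highest was 4.93 times the lowest for Isg15 and 4.36 times for Usp18, but 2.10 times for Uba7, 1.86 for Ube2l6, 1.61 for Trim25 and 1.34 for Herc6. In wild-type hearts the same ratio was 1.80 for Isg15, 2.45 for Usp18 and 2.73 for Ube2l6, and 1.10 for Uba7, 1.14 for Trim25 and 1.23 for Herc6. Ube2l6 was the one gene that varied more among wild-type than among knockout hearts.

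Replicate A was the lowest knockout heart for every gene but Herc6, for which D was lowest. Relative to the wild-type mean, Isg15 was 7.11 times as high in A and 15.6 to 35.0 times in the other knockout hearts, and Usp18 6.61 times in A and 14.7 to 28.8 times in the others. B was highest for Isg15, Uba7 and Ube2l6, and 15 for Herc6, Usp18 and Trim25. Without replicate A the log2 fold change was 4.75 for Isg15, 4.42 for Usp18 and 2.14 for Uba7.

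After each genotype's mean was taken off, the log2 CPM of each gene was set against the mean of the other 5 over the 11 hearts, as a description. Pearson's r was 0.926 for Isg15, 0.882 for Usp18, 0.866 for Uba7, 0.753 for Trim25, 0.706 for Herc6 and 0.645 for Ube2l6. The points share library and depth, and replicates A and 6 lie farthest out.

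By the same measure, the 8 genes outside the pathway whose values most resembled the mean of the 6 were Spire1 (r = 0.950), an actin nucleator, Irf7 (0.947) and Irf9 (0.942), transcription factors of the interferon response, Helz2 (0.922), Ifih1 (0.911), the RNA sensor MDA5, Unkl (0.910), Hebp1 (0.907), a heme-binding protein, and Gbp3 (0.907), a guanylate-binding protein. With the 2 hearts farthest from the median left out, r of these genes lay between 0.575 and 0.828. Irf7 rose by 3.34 (SE 0.32, adjusted p = 8.89e-05) and Gbp3 by 2.85 (SE 0.26, adjusted p = 3.66e-05) on the log2 scale, and Spire1 by 1.08 (SE 0.10, adjusted p = 1.40e-05). Unkl, at 0.36 (SE 0.12, adjusted p = 0.0567), did not pass the test.

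The 30 other interferon-induced genes listed for comparison, antiviral effectors and sensors such as the IFIT, OAS and MX families, were all higher in Pde2A-/- hearts, with a median log2 fold change of 2.18. In 24 the fold change was at least 2, and in 27 the genotypes did not overlap. This list, too, was drawn up with earlier results of these data known. Ifit1, which binds foreign RNA caps, rose by 4.30 (SE 0.32, adjusted p = 6.51e-06), Ifi44 by 4.16 (SE 0.38, adjusted p = 5.08e-05) and Ifit3b by 3.99 (SE 0.39, adjusted p = 3.03e-05) on the log2 scale. Isg15 lay above the upper end of this list and Usp18 between Ifit1 and Ifi44. Trim25, Herc6 and Ube2l6 lay toward its lower end, where Ifit2 stood at 0.32 (adjusted p = 0.0464), a call that held without replicate A, E or H but not without any other single heart (adjusted p 0.0705 to 0.117).

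The genes upstream of the pathway were taken by their role, with the names below chosen for that role or after their values were seen. Of 11 interferon ligand genes, 8 had no read in any heart, among them Ifnb1, Ifna1 and Ifna4, and Ifng had at most 1 read in a heart. A count of 0 allows up to 3 reads, or 0.0836 CPM in the smallest library. The Ifna genes are near-identical copies, and reads that map to several places were not counted, so their counts are uncertain. A difference in ligand RNA was not detectable at this depth.

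Of 6 receptor genes, 2 were higher, Ifnar2, a chain of the type I interferon receptor, by 0.33 (SE 0.08, adjusted p = 0.0148) and Ifngr1, a chain of the type II receptor, by 0.26 (SE 0.06, adjusted p = 0.0150). The kinases Jak1 (log2 fold change 0.11) and Tyk2 (0.03) did not pass the test. Of 6 transcription factor genes, 5 were higher, among them Irf7 above, Irf9 by 1.66 (SE 0.12, adjusted p = 4.81e-06), Stat2 by 0.64 (adjusted p = 0.000115) and Irf1 by 0.52 (adjusted p = 0.0392). The call of Irf1 held without replicate A, B or 7 and not without any other single heart (adjusted p 0.0602 to 0.107), and that of Ifnar2 was lost without replicate D (0.0519). Irf3, at -0.20 (adjusted p = 0.0571), did not pass. Over the whole list, 7 of 15 tested genes were higher and 0 lower, beside 8.86% and 5.72% of all genes tested. Irf7 is among the genes for which the study made RT-qPCR measurements.

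**Figure D3:**
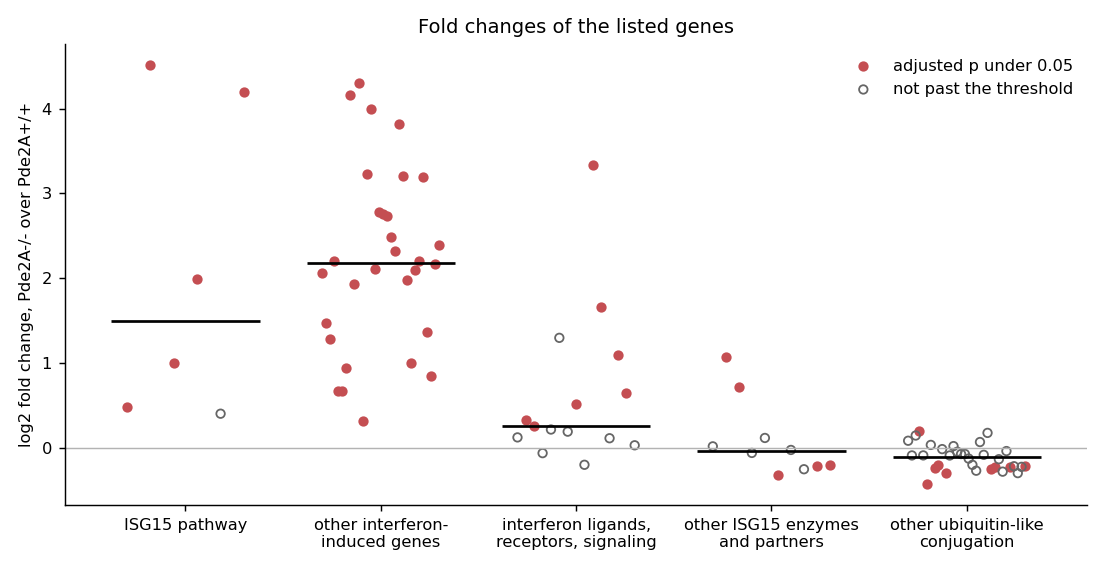
Log2 fold change (Pde2A-/- over Pde2A+/+) of every tested gene in the ISG15 pathway and in 4 lists. Points are genes, filled where the adjusted p was under 0.05, and lines are medians, 1.49 for the ISG15 pathway, 2.18 for other interferon-induced genes -0.04 for other ISG15 enzymes and partners and -0.11 for other conjugation genes.

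Ubiquitin and the other ubiquitin-like proteins have conjugation systems of their own, whose genes are not known as interferon-induced as a group. Of 32 tested genes of these systems 1 was higher and 8 were lower, with a median log2 fold change of -0.11. Of all genes tested, 8.86% were higher and 5.72% lower. Of 12 tested modifiers 0 were higher and 2 lower, of 8 activating enzymes 0 and 2, of 8 conjugating enzymes 0 and 3, and of 4 HERC ligases 1 and 1. All of these were small, the extremes being Herc3, a relative of Herc6, at -0.43 (SE 0.10, adjusted p = 0.0137), and Herc1, a further relative and the single gene higher, at 0.20 (SE 0.06, adjusted p = 0.0310). Sae1, an activating enzyme of SUMO, fell by 0.30 (SE 0.07, adjusted p = 0.0131) and Ube2d1, a ubiquitin-conjugating enzyme, fell by 0.26 (SE 0.06, adjusted p = 0.0151). Ube2l3, a close relative of Ube2l6, was at -0.23 (adjusted p = 0.0474), a call that held without replicate A or B and not without any other single heart (adjusted p 0.0502 to 0.123). The call of Herc1 was lost without any single heart except replicates A, 15 and H, and the number lower ran from 3 to 13 when a heart was left out, as given under the dependence on processing.

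Of 10 further enzymes and partners of ISG15, 2 were higher and 3 lower, beside 8.86% and 5.72% of all genes tested. Itgal and Itgb2 encode the chains of LFA-1, an integrin of leukocytes that serves as a receptor for ISG15 outside the cell. Itgb2 rose by 0.72 (SE 0.18, adjusted p = 0.0181), a call lost without replicate 15 (adjusted p = 0.0506) or D (0.0521). Itgal rose by 1.07 (SE 0.32, adjusted p = 0.0487). Its knockout hearts lay between 12.0 and 16.4 CPM and its wild-type hearts between 3.45 and 6.06 CPM apart from replicate 7 at 14.8. Replicate 7 is also the heart with thymus and lymphoid markers described below. Without replicate 7 the log2 fold change of Itgal was 1.46 (adjusted p = 3.22e-05), and without any other single heart the adjusted p lay between 0.0553 and 0.114.

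The proteases Usp13, Usp21 and Usp5, reported to bind or cut ISG15 beside ubiquitin, fell by 0.33 (adjusted p = 0.0140), 0.21 (adjusted p = 0.0207) and 0.20 (adjusted p = 0.0318) on the log2 scale. Usp13 passed whichever heart was left out. Usp21 did not without replicate 15 (adjusted p = 0.0504) or D (0.0612), and Usp5 did not without replicates 14, 15, D, 6 or 8 (0.0616 to 0.0798). The other 5, including the ligase Arih1 at 0.02, lay between -0.25 and 0.12 and did not pass.

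Of 15 genes whose proteins are reported to carry ISG15, 7 were higher and 1 was lower, beside 8.86% and 5.72% of all genes tested. The largest differences were in genes also listed as interferon-induced, Ifit1 above, Mx1, an antiviral GTPase, at 2.78 (SE 0.54, adjusted p = 0.00719) and Ddx58, the gene of RIG-I, at 1.29 (SE 0.11, adjusted p = 1.40e-05). Tsg101, a sorting protein, fell by 0.22 (SE 0.06, adjusted p = 0.0187). RNA levels say nothing about how much of these proteins carried ISG15, which was not measured.

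Markers of other cell types moved with the genotypes as well. Cardiomyocyte markers identified the tissue as heart in every library, their sum running from 39790 to 46053 CPM in Pde2A-/- and from 38595 to 51536 CPM in Pde2A+/+ hearts. Of 15 macrophage markers 12 were higher, and their sum was 297 to 403 CPM against 149 to 235 CPM. Of 9 tested erythroid markers 8 were higher, each without overlap of the genotypes, and the sum of these 8 was 408 to 819 CPM against 50.4 to 147 CPM. The remaining one, Alas2, which encodes the first enzyme of heme synthesis in red cells, had a log2 fold change of -0.60 (SE 0.37, adjusted p = 0.315), at 89.1 to 159 CPM against 77.0 to 360 CPM. Of 8 endothelial markers 3 were higher (Pecam1, Emcn and Egfl7), with a sum of 1294 to 1445 CPM against 1079 to 1284 CPM, and of 8 fibroblast markers 3 were higher (Postn, Tcf21 and Pdgfra). Of 14 cardiomyocyte markers Nppa was higher and Tnni1, Ttn and Nkx2-5 were lower. In whole hearts, more cells of a type and more RNA per cell cannot be told apart, and the part of any of these cell types in the rise of Isg15, Usp18, Uba7, Trim25 and Herc6 was not tested. Lymphoid and plasmacytoid markers were at or near 0 in Pde2A-/- hearts, their sum reaching 0.361 CPM, with Cd3e, Ms4a1 and Ncr1 at 0 in all of them. In Pde2A+/+ hearts their sum was 0.190 to 0.348 CPM, apart from replicate 7 at 31.7 CPM. Of the 5 lymphoid and plasmacytoid markers tested, only Siglech was called, lower by 1.43 on the log2 scale (SE 0.43, adjusted p = 0.0413). It rests on 1 to 4 reads per Pde2A-/- heart and 3 to 10 per Pde2A+/+ heart.

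Ube2l6 and Alas2 were ordered alike among wild-type hearts. From high to low the order was 11, H, 7, E, 8, 6 for both, with 67.9 CPM of Ube2l6 beside 360 CPM of Alas2 in replicate 11 and 24.9 beside 77.0 in replicate 6. In Pde2A-/- hearts 3 of 5 had the same rank in both, B highest and A lowest. With the sum of the other 8 erythroid markers, 4 of 6 wild-type and 2 of 5 knockout hearts had the same rank as with Ube2l6. Alas2 made up 57.5% to 70.9% of the sum of all 9 markers in wild-type and 14.3% to 18.4% in knockout hearts, so that sum does not match hearts of the 2 genotypes for erythroid content. These orders were seen after the values were known, and the part of erythroid cells in the Ube2l6 level was not tested. For Trim25 the order of the knockout hearts, 15, 14, D, B, A, was that of the macrophage markers, and among wild-type hearts 1 of 6 had the same rank. For Uba7 the knockout order, B, 15, 14, D, A, was that of all 9 erythroid markers summed, where 15 (795 CPM) and 14 (791 CPM) nearly tied. It was not that of Alas2 alone (B, D, 15, 14, A) or of the other 8 markers (B, 14, 15, D, A). With the sum of all 9, too, 1 of 6 wild-type hearts had the same rank. Both matches were picked from the orders of all 6 members after the values were known.

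**Figure D4:**
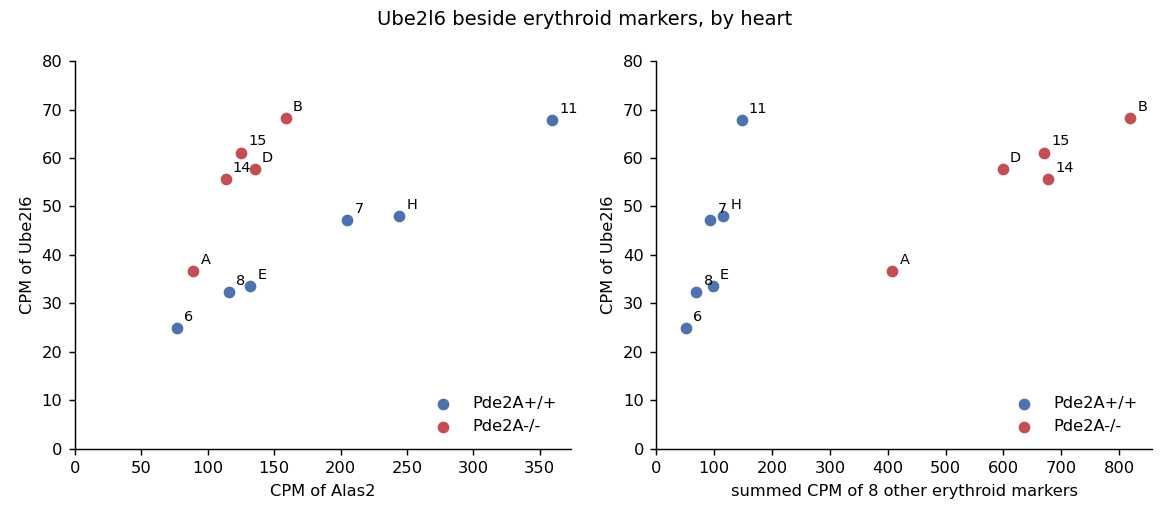
Level of Ube2l6 in CPM against the CPM of Alas2 (left) and the summed CPM of the 8 other erythroid markers (right), on linear axes from 0. Points are hearts marked with their replicate name; among the 6 Pde2A+/+ hearts (blue) Ube2l6 climbs with Alas2 from 24.9 to 67.9 CPM, and on the right all 5 Pde2A-/- hearts (red) lie at 408 CPM or more and all Pde2A+/+ hearts at 147 CPM or less.

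Sense-strand gene counts totalled 35865537 to 42835382 per heart. Pde2a itself had 0 to 2 reads per library and 7 in all, wild-type hearts included, too few to check the labels. Reads lying on several genes or mapping to several places are not in these counts. Whether this lowered the count of Pde2a was not tested, so it is not read as the expression level of the gene. Wild-type replicate 7 held thymus markers at 52.9 CPM and lymphoid markers at 31.7 CPM, where the other hearts had at most 0.224 and 0.361 CPM. Lung markers reached 9.27 CPM in wild-type replicate 11. Liver markers were at 110.7 CPM in wild-type replicate E, 42.3 in 11 and 35.5 in H, and at 36.4 CPM in knockout replicate D, against 1.65 to 2.95 CPM in the other hearts. Without replicate 7 the log2 fold change was 4.57 for Isg15, 2.0 for Uba7, 0.43 for Ube2l6, 0.49 for Herc6, 0.99 for Trim25 and 4.30 for Usp18, and without replicate 11 that of Ube2l6 was 0.59 (adjusted p = 0.0959).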

How the data were processed

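Hearts were assigned to genotypes by the sample titles. The authors mapped single-end reads to GRCm38 with STAR, whose version was not given in the sources used here, and deposited raw read counts per gene, without normalization, for both strands together and for each strand. Reads lying on several genes or mapping to several places are in none of these counts. For the sense strand, 19.6% to 22.4% of reads per heart were not assigned to a single gene, unmapped reads included. The sense-strand column was used. Genes were named from GENCODE M21, which matched 55227 of 55487 identifiers.

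Genes whose counts summed to 10 or more across the 11 hearts were tested in R 4.3.3 with edgeR 4.0.16 (TMM, robust quasi-likelihood test of Pde2A-/- against Pde2A+/+, Benjamini-Hochberg adjustment over 24177 genes). Log2 fold changes are given with standard errors derived from the F statistic. A call needed an adjusted p under 0.05 and, where stated, a fold change of at least 2. RPKM used all exon bases of a gene and TMM library sizes. The p-values measure the spread between hearts, whose litters were not given. The common biological coefficient of variation was 16.8%.

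The members and lists were chosen with earlier results of these data known. Named genes are the 6 members, partners past the adjusted p, the 3 largest changes of each other list and the 8 genes most like the members over hearts with a mean of at least 1 CPM; further names were chosen for their role or after their values were seen. The single result of 1 listed gene is not reported here, and the list counts include it. Alternatives were DESeq2 1.42.0, DESeq2 size factors, filterByExpr, no count filter, both strands together, a fit without globin genes, replicate name style as covariate, the longest transcript as length, and each heart left out. The fits were tested on simulated data. Python 3.11.15 was used for tables and motif searches. The authors' RT-qPCR and drug experiments were not analysed here.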

Additional observations from a re-analysis of the deposited data

How the results depend on the processing

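No call for any of the 6 genes changed in 7 alternatives or when each of the 11 hearts was left out, and 5 were higher in each. With a fold limit of 2, 3 or 4 were called, depending on Trim25. Leaving out 1 heart gave log2 fold changes of 4.31 to 4.75 for Isg15, 3.99 to 4.42 for Usp18, 1.91 to 2.14 for Uba7, 0.91 to 1.08 for Trim25, 0.42 to 0.53 for Herc6 and 0.29 to 0.59 for Ube2l6, whose adjusted p ran from 0.0959 to 0.485. No paired analysis was possible because the litters were not given and the replicate names define no pairs. The length of the longest transcript moved Uba7 to 14.4 and 3.62 RPKM (Pde2A-/- and Pde2A+/+), Ube2l6 to 35.8 in Pde2A-/-, Herc6 to 1.38 and 0.988, and Usp18 to 4.73 and 0.254. The other lists were less stable. DESeq2 called 3 other ubiquitin-like conjugation genes higher and 14 lower, and 1 interferon pathway gene, Irf3, lower, as did filterByExpr. The name style as covariate gave 2 conjugation genes higher. No count filter and reads of both strands each left 1 of the other ISG15 partners higher. Leaving out 1 heart gave 0 to 2 partners higher and 1 to 4 lower, 0 to 1 interferon pathway genes lower, and 0 to 3 conjugation genes higher and 3 to 13 lower, the fewest without replicates 14 or D and the most without A. Over all genes it gave 1241 to 2894 higher and 420 to 2211 lower, against 2143 and 1384, and DESeq2 called 2791 and 2354. The cause was not tested. With 5 and 6 hearts, the interval of Ube2l6 leaves a rise of up to 1.95-fold undetected.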
